A study of Mus musculus with 2 samples.

Results

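Interferon-stimulated genes are transcribed at a resting, or tonic, level in T cells that have met no infection, and 32 of them, antiviral effectors, RNA sensors, immunity-related GTPases and a signalling factor, were followed in naive CD4 and naive CD8 T cells. They were taken by gene symbol from a fixed list, and all 32 of the 32 symbols were found among the 23167 symbols of the deposited RNA-seq tables. The first library came from naive CD4 T cells and the second from naive CD8 T cells, both sorted by FACS for high CD62L and low CD44, without CD25 or Foxp3-GFP, from the spleen and lymph nodes of untreated Foxp3-GFP mice on a C57/BL6 background. Both cell types thus carry the same Foxp3-GFP reporter allele, and the sort against GFP removes Foxp3-expressing regulatory T cells. The animals' age, and how many were pooled for a library, are not given in the sources used. The series is about 5-hydroxymethylcytosine in T cell development, and each cell type has a single RNA-seq library (1 each), so the differences have no replicate check and no p-value.

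Type I interferons bind the receptor IFNAR and, through the kinases JAK1 and TYK2, activate a complex that contains STAT2 and IRF9 and binds the interferon-stimulated response element (ISRE) of target promoters. Interferon-gamma acts through its own receptor and the kinases JAK1 and JAK2 on promoters with the gamma-activated sequence (GAS). Low constitutive interferon keeps many of these targets transcribed without infection, and the IRG and GBP GTPases are best known as targets of interferon-gamma.

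The lineage genes went with the labels. Cd4 was at 305 RPKM (reads per kilobase of gene and per 1000000 library reads) in CD4 cells and 8.89 RPKM in CD8 cells, and Cd8a was at 2.50 RPKM in CD4 cells and 518 RPKM in CD8 cells. The library totals recovered from the RPKM were 24741945 reads in CD4 and 23853921 reads in CD8. The 32 genes held a median of 1252 reads in CD4 and 1175 in CD8, and the lowest, Ifi44, held 69 in CD4 and 35 in CD8. Markers of other cells that respond to interferon were mostly low. Of 7 B cell markers 6 were below 1 RPKM in both libraries, with a summed level of 3.76 RPKM in CD4 against 30.3 RPKM in CD8 that was almost all Cd79b in CD8 (28.8 RPKM). Of 7 monocyte and macrophage markers 4 were below 1 RPKM in both, with sums of 7.17 RPKM in CD4 against 5.36 RPKM in CD8, and Cd14 was listed at 0 in both. Among 6 plasmacytoid dendritic cell markers Siglech and Klk1 were listed at 0 in both and the summed level, 18.7 RPKM in CD4 against 77.5 RPKM in CD8, lay mainly in Ccr9 and Pacsin1. Of 6 conventional dendritic cell markers 4 were below 1 RPKM in both, with sums of 2.95 RPKM in CD4 against 4.44 RPKM in CD8. Pecam1, which T cells can also express, made up nearly all of the summed level of 5 stromal and endothelial markers, 105 RPKM in CD4 against 52.5 RPKM in CD8. Of 6 NK cell markers 3 passed 2-fold toward CD8, with sums of 43.1 RPKM in CD4 against 166 RPKM in CD8. These sums lay mainly in Klrd1, at 7.85 RPKM in CD4 against 105.5 RPKM in CD8, and Prf1, at 34.6 RPKM against 54.6 RPKM. Klrb1c, at 0.031 RPKM in CD4 against 1.36 RPKM in CD8, and Gzma, at 0.556 RPKM against 4.51 RPKM, were low. Ncr1 went the other way, at 0.111 RPKM in CD4 against 0 in CD8, and Klra8 was listed at 0 in both. The part of such cells in the differences below was not tested.

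The promoters of the antiviral genes are shown because the ISRE is the element through which type I interferon acts on such genes. RefSeq promoter windows of 300 bases (build GRCm38.p6, 250 before and 50 from the annotated start onward) were at hand for 25 of the 32 genes; Oas2, Mx1, Usp18, Gbp6, Rtp4, Parp14 and Dhx58 are named only. The ISRE core was searched as a pair of GAAA runs with any 2 bases between them and the GAS as TTCNNNGAA, each on both strands, so an ISRE core on the other strand reads as a pair of TTTC runs. In the lines below, read in the direction of transcription, capitals mark these matches. The first lines give Ifit1, with 2 ISRE cores, Ifit2 of the same gene cluster, with a GAS match only, Ifit3, and the overlapping cores of Isg15 and Oas1a. Ifit2 has 2 RefSeq windows, neither with an ISRE core, and not both are printed.
Ifit1 (chr19:34640639-34640888, plus strand): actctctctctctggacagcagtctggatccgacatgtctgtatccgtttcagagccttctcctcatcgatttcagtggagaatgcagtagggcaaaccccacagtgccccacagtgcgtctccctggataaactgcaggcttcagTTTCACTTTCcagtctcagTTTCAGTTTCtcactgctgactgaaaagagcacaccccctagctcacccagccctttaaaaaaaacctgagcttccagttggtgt
Ifit2 (chr19:34550444-34550693, plus strand): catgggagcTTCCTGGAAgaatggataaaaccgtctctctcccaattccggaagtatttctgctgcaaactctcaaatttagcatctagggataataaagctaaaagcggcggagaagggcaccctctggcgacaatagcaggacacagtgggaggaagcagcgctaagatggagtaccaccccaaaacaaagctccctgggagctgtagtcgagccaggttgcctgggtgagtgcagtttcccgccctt
Ifit3 (chr19:34583365-34583424, plus strand): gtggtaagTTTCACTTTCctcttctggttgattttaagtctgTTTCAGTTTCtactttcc
Isg15 (chr4:156200856-156200915, minus strand): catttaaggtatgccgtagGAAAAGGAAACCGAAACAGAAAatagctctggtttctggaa
Oas1a (chr5:120907526-120907585, minus strand): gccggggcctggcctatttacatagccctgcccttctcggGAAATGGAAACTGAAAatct

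The second set gives GTPase genes of the IRG and GBP families with Bst2. Igtp and Irgm2 carry a GAS match just before the ISRE core, and over 50 bases aligned on that core, from 25 bases before it, they were identical at 48 of 50. In Bst2 the GAS match overlaps a core. The GAS matches of Gbp7 and Oas1a lie outside the bases printed.
Igtp (chr11:58199496-58199555, plus strand): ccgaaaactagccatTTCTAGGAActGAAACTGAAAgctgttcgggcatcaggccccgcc
Irgm2 (chr11:58214888-58214947, plus strand): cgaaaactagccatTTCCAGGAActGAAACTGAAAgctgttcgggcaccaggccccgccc
Irgm1 (chr11:48871421-48871480, minus strand): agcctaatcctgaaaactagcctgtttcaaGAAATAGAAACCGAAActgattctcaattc
Gbp3 (chr3:142559977-142560036, plus strand): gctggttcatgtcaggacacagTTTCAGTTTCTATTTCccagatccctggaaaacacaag
Gbp7 (chr3:142530258-142530317, plus strand): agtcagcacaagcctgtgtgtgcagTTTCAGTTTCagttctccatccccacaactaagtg
Bst2 (chr8:71537565-71537624, minus strand): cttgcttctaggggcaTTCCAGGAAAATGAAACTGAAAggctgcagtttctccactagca

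An ISRE core was present in the window of 17 of the 25 genes (68.0%), against 1079 of 27025 genes in the RefSeq table (3.99%), or 3.44% of all windows of that length. A GAS match was present for 9 of the 25 (36.0%), against 9.55% of genes. Besides the genes printed, an ISRE core was found for Stat2, Oas3, Rsad2, Gbp2, Ddx58, Ifih1 and Eif2ak2. In Ddx58, Ifih1 and Eif2ak2 it lay after the annotated start. The 8 genes without a core in their windows were Ifit2, Isg20, Oasl1, Oasl2, Ifi44, Ifi47, Xaf1 and Adar. A match is a description of these letters, and its absence from a window says nothing of sites elsewhere.

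**Figure D1:**
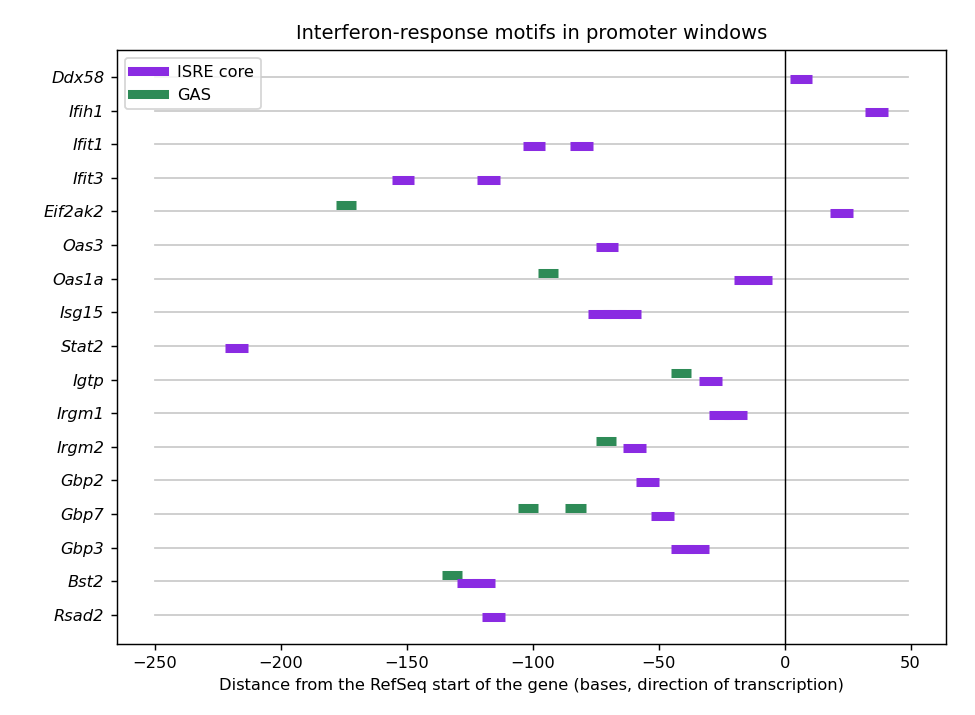
Positions of the ISRE core (purple) and GAS (green) matches in the RefSeq windows of the 17 genes with a core, as distance in bases from the annotated start, which is at 0. Most cores lay upstream of the start, and those of Ddx58, Ifih1 and Eif2ak2 lay after it.

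Of the 32 genes, 31 reached 1 RPKM in each library, and Ifi44 was the exception, at 0.962 RPKM in CD4 against 0.506 RPKM in CD8. Levels ran from there to 215 RPKM in CD4 against 250 RPKM in CD8 for Ifi47. The median level of the 32 genes was 20.996 RPKM in CD4 against 19.0 RPKM in CD8. For all genes at 1 RPKM or more it was 14.8 RPKM in the CD4 library and 14.1 RPKM in the CD8 library. Their summed level was 1106 RPKM in CD4 against 1074 RPKM in CD8. In bulk RNA, a different share of expressing cells and a different level per cell cannot be told apart.

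The order of levels was much alike in the libraries. The same 6 genes were the highest in both, namely Ifi47, Igtp, Irgm1, Adar, Gbp2 and Bst2, and 10 of the 32 genes held the same rank. Across the 32 genes the rank correlation (Spearman) of the levels was 0.95, over points that share 2 libraries. Many neighbours in the order could not be separated, since the 95% Poisson intervals of 18 of 31 neighbouring pairs overlapped in CD4 and those of 20 of 31 in CD8. The largest change of rank was that of Ifit2, 10th in CD4 and 20th in CD8. The 4 IRG GTPases alone made up 41.7% of the summed level in CD4 and 41.6% in CD8, and with the 4 GBP genes 53.4% in CD4 and 55.8% in CD8. The antiviral genes Rsad2, Oas1a and Oasl2 were among the 6 lowest in both libraries.

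**Figure D2:**
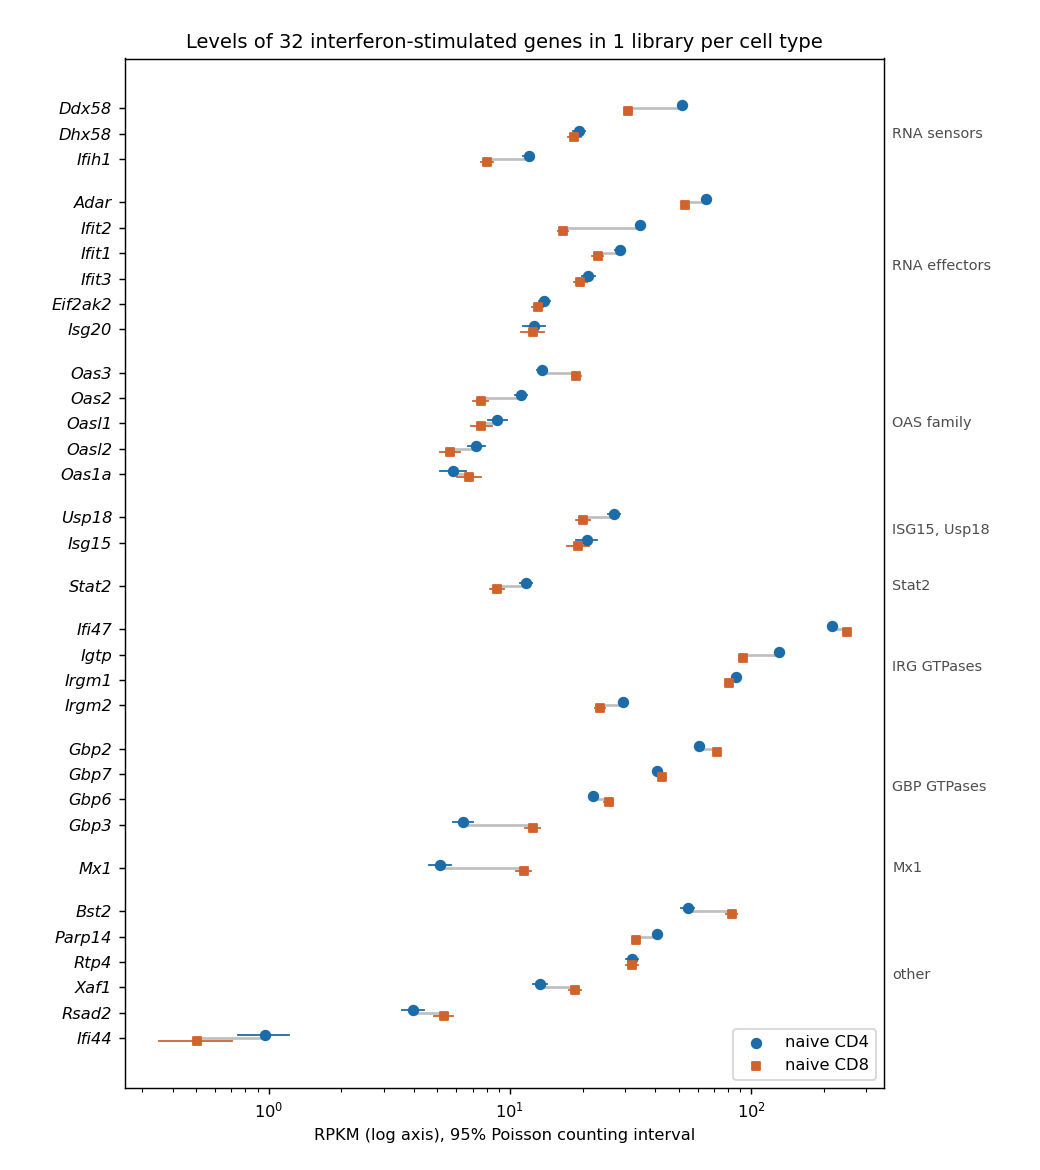
Level of each of the 32 genes in naive CD4 (blue circles) and naive CD8 (orange squares) cells, in RPKM on a log axis, grouped by role, with 95% Poisson counting intervals from 1 library each. Ifi47 and Igtp were highest in both, and Ifi44 was lowest.

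Single genes differed in both directions, and the median of the group lay near that of all genes. The difference was taken as log2((CD4 RPKM + 1)/(CD8 RPKM + 1)), and the 31 genes that reached 1 RPKM in either library were compared. By a rule of at least 2-fold, 1 of 31 was higher in CD4, Ifit2, against 2.41% of all 10228 compared genes, and 1 of 31 was higher in CD8, Mx1, against 3.07%. Each is 3.23% of the 31 genes, a share near the background. The median difference of the 31 genes was 0.09 and that of all compared genes 0.08. The middle 50% of the genes lay between -0.21 and 0.31, and for all compared genes between -0.16 and 0.30. Of the 31 genes 20 were above 0 (64.5%), as were 59.5% of all compared genes. At 1.5-fold, 2 genes were higher in CD4 (6.45%, background 8.07%) and 3 in CD8 (9.68%, background 7.47%).

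Counting error was small beside many of these differences. Each fold below is the ratio of the deposited RPKM without the pseudocount, followed by its exact (Clopper-Pearson) 95% counting interval from the reads, which compares 2 libraries and leaves out animals, sorts and library preparation. The interval lay above 1 for 14 of 31 genes (45.2%), against 45.0% of compared genes, and below 1 for 10 of 31 (32.3%), against 27.1%. It held 1 for 7 genes as deposited: Ifit3, Isg15, Isg20, Oas1a, Rtp4, Dhx58 and Eif2ak2. When the RPKM of each library were made to sum to 1000000, the median of all compared genes moved by 0.21 toward CD4. After that rescaling 21 of the 31 genes had an interval above 1 and 6 below it. The matching shares of all compared genes were not taken, so these counts cannot be read as a trait of the group. Rescaling applies 1 factor to every gene. Over all compared genes, those past 2-fold went from 247 to 517 toward CD4 and from 314 to 285 toward CD8. Of the 7 genes whose interval had held 1, 6 were then above it, and Oas1a still held 1. The direction of 27 of the 31 genes was the same as deposited, after the rescaling and after centring on the median gene. The exceptions were Isg20, Gbp7, Rtp4 and Dhx58.

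**Figure D3:**
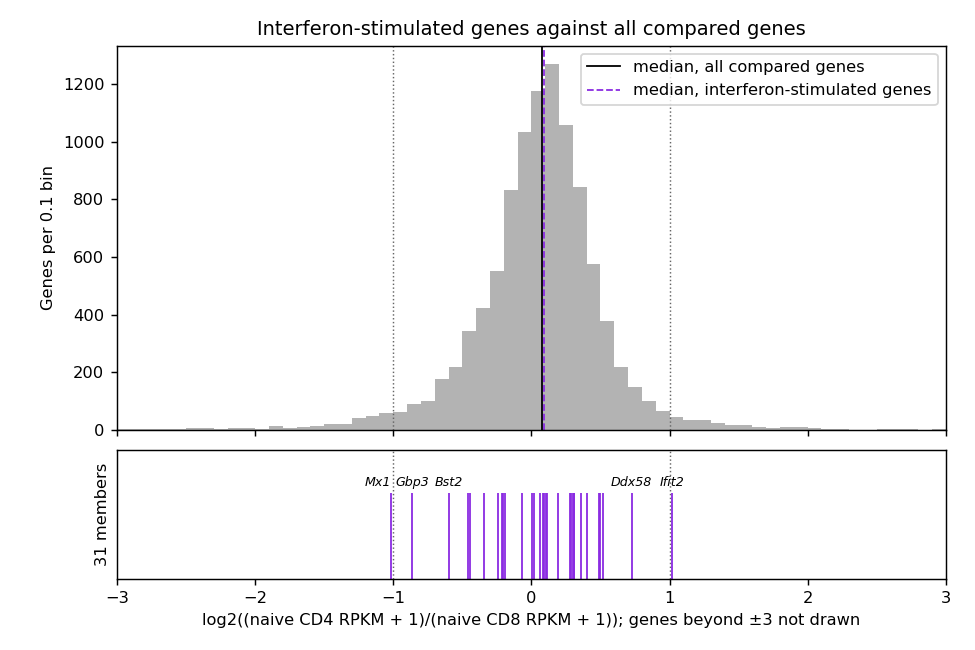
Upper panel, number of compared genes per 0.1 bin of the log2 difference, CD4 over CD8, with the medians of all 10228 genes (line, 0.08) and of the 31 compared genes of the group (dashed, 0.09). Lower panel, each of the 31 genes as a line, with the 2-fold limits dotted; Ifit2 and Mx1 lie just past them.

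Of the 3 cytosolic RNA sensors 2 had an interval above 1, against 45.0% of all compared genes. Ddx58, which encodes RIG-I, the sensor of RNA with a free triphosphate end, was at 51.8 RPKM in CD4 against 30.9 RPKM in CD8. That is 1.67-fold higher in CD4 (1.61 to 1.75), on 6308 and 3631 reads, the second largest log2 difference toward CD4. Its recovered length, the smallest that gave whole reads, lay 27.1% from the nearest GENCODE M21 transcript, so no annotated length backs it. Ifih1, the gene of MDA5, which binds long double-stranded RNA, was at 11.9 RPKM in CD4 against 8.04 RPKM in CD8 (1.48-fold higher in CD4, 1.37 to 1.61). Dhx58, the gene of LGP2, a regulator of the other two, was at 19.3 RPKM in CD4 against 18.5 RPKM in CD8, with an interval that held 1 (0.961 to 1.14). The summed level of the sensors was 83.0 RPKM in CD4 against 57.4 RPKM in CD8, and their median log2 difference was 0.52. After centring on the median gene Dhx58 was at -0.02.

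Among the effectors that bind, edit or degrade RNA, 3 of 6 had an interval above 1, near the 45.0% of all compared genes. None had an interval below 1 (27.1% of all compared genes). The values of all 6 were above 0 as deposited, as were 59.5% of all compared genes. Ifit2, whose product binds viral RNA and is linked to cell death, was at 34.6 RPKM in CD4 against 16.6 RPKM in CD8. It was 2.08-fold higher in CD4 (1.96 to 2.21), on 3378 and 1563 reads, and was the 1 gene of the group past the 2-fold rule in that direction. After centring on the median gene its log2 difference was 0.94, under the rule. Ifit1, which recognises RNA caps that lack methylation, was at 28.6 RPKM in CD4 against 23.1 RPKM in CD8 (1.24-fold higher in CD4, 1.16 to 1.33). Ifit3 was at 21.1 RPKM in CD4 against 19.6 RPKM in CD8 (1.08-fold, 0.987 to 1.18). The 3 Ifit genes stand in 1 cluster on chromosome 19, and the intervals of the adjacent Ifit2 and Ifit3 were apart. A near-identical copy of Ifit3 exists in the mouse genome, so its value is uncertain. Adar, the adenosine deaminase that edits double-stranded RNA, was the highest of the effectors at 64.9 RPKM in CD4 against 53.2 RPKM in CD8 (1.22-fold higher in CD4, 1.18 to 1.26). Eif2ak2, the kinase PKR that halts translation on binding double-stranded RNA, was at 13.9 RPKM in CD4 against 13.0 RPKM in CD8 (1.07-fold, 0.989 to 1.15). Isg20, an exonuclease, was at 12.5 RPKM in CD4 against 12.4 RPKM in CD8, and it was below 0 after centring (-0.07).

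The oligoadenylate synthetase family went both ways. Oas1a, Oas2 and Oas3 belong to the family whose active members make the messenger that switches on RNase L. Oas2 was at 11.1 RPKM in CD4 against 7.56 RPKM in CD8 (1.47-fold higher in CD4, 1.33 to 1.62). Oas3, its neighbour on chromosome 5, was at 13.6 RPKM in CD4 against 18.8 RPKM in CD8 (1.39-fold higher in CD8, 1.30 to 1.48). The intervals of these adjacent genes lay on opposite sides of 1. Oas1a was at 5.82 RPKM in CD4 against 6.78 RPKM in CD8, with an interval that held 1 as deposited and lay below 1 after centring. The synthetase-like genes were low in both. Oasl1, which in mice restrains translation of Irf7, was at 8.86 RPKM in CD4 against 7.60 RPKM in CD8 (1.16-fold higher in CD4, 1.02 to 1.34), with an interval that held 1 after centring. Oasl2 was at 7.26 RPKM in CD4 against 5.65 RPKM in CD8 (1.28-fold higher in CD4, 1.13 to 1.46). Over the 5 genes the summed level was 46.6 RPKM in CD4 against 46.4 RPKM in CD8. Oas1a has several close paralogs that can share reads, as do Oasl1 and Oasl2 between them.

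Of 3 genes that tune or carry the interferon response, Usp18 and Stat2 had an interval above 1, against 45.0% of all compared genes. The interval of Isg15 held 1. Usp18, the protease that removes ISG15 from proteins and also blocks the type I receptor, was at 26.9 RPKM in CD4 against 20.1 RPKM in CD8 (1.34-fold higher in CD4, 1.22 to 1.46). Isg15, the ubiquitin-like modifier itself, was at 20.9 RPKM in CD4 against 19.2 RPKM in CD8 (1.09-fold, 0.938 to 1.26), on 389 and 345 reads. Stat2, the STAT specific to the ISRE-binding complex, was at 11.7 RPKM in CD4 against 8.86 RPKM in CD8 (1.31-fold higher in CD4, 1.21 to 1.43).

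The IRG GTPases, which attack the vacuoles of intracellular parasites and bacteria in mice, were the most abundant class. Among them 3 of 4 had an interval above 1, against 45.0% of all compared genes. Ifi47, also called Irg47, was the highest of all 32 genes and the exception, at 215 RPKM in CD4 against 250 RPKM in CD8 (1.16-fold higher in CD8, 1.13 to 1.20), though its interval held 1 after rescaling to a common sum. Igtp, the gene of Irgm3, was at 130 RPKM in CD4 against 92.2 RPKM in CD8 (1.41-fold higher in CD4, 1.35 to 1.46). Irgm2 was at 29.4 RPKM in CD4 against 23.6 RPKM in CD8 (1.25-fold higher in CD4, 1.17 to 1.32). Irgm1, a regulator of autophagy and of the other IRG proteins, was at 86.3 RPKM in CD4 against 80.9 RPKM in CD8 (1.07-fold higher in CD4, 1.02 to 1.11), and its interval held 1 after centring. Adjacent Igtp and Irgm2, whose promoters share the layout printed above, both stood toward CD4 with intervals that were apart. The summed level of the class was 461 RPKM in CD4 against 447 RPKM in CD8.

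The 4 GBP genes, large GTPases that coat pathogens and their vacuoles, all had intervals below 1 as deposited, against 27.1% of all compared genes. After rescaling to a common sum, though, Gbp7 was above 0 (0.14) and the intervals of Gbp2 and Gbp6 held 1. Gbp3 differed most, at 6.40 RPKM in CD4 against 12.4 RPKM in CD8 (1.94-fold higher in CD8, 1.72 to 2.20), on 416 and 780 reads. Gbp2 was the highest, at 60.7 RPKM in CD4 against 72.0 RPKM in CD8 (1.18-fold higher in CD8, 1.13 to 1.24). Gbp6 was at 22.1 RPKM in CD4 against 25.6 RPKM in CD8 (1.16-fold higher in CD8, 1.10 to 1.23). Gbp7, next to Gbp3 on chromosome 3, was at 40.6 RPKM in CD4 against 42.7 RPKM in CD8 (1.05-fold higher in CD8, 1.01 to 1.09). With the smallest whole reads that fit the values the interval of Gbp7 held 1, and that of the CD4 over CD8 ratio of Gbp3 was 0.401 to 0.656. The median log2 difference of the 4 genes was -0.22 as deposited and -0.02 after the rescaling. GBP genes are close paralogs, Gbp6 above all, and can share reads.

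Mx1, a dynamin-like GTPase that blocks influenza virus and that many inbred laboratory strains, C57BL/6 included, carry as a disrupted allele, was at 5.14 RPKM in CD4 against 11.4 RPKM in CD8. It was 2.22-fold higher in CD8 (1.96 to 2.51), on 377 and 806 reads, and was the 1 gene past the 2-fold rule toward CD8. After rescaling to a common sum its log2 difference was -0.88, under the rule. Its reads rest on the gene length chosen, and with the smallest whole reads the interval of its CD4 over CD8 ratio was 0.28 to 0.712. Bst2, which encodes tetherin, the membrane anchor that holds budding virions, was at 54.4 RPKM in CD4 against 83.0 RPKM in CD8 (1.52-fold higher in CD8, 1.41 to 1.65). Xaf1, a partner of the apoptosis inhibitor XIAP, was at 13.3 RPKM in CD4 against 18.7 RPKM in CD8 (1.40-fold higher in CD8, 1.28 to 1.53). Rsad2, the gene of viperin, which makes a chain-terminating nucleotide, was at 3.97 RPKM in CD4 against 5.31 RPKM in CD8 (1.34-fold higher in CD8, 1.17 to 1.54). These antiviral genes stood toward CD8, but not all of their class did. Parp14, an ADP-ribosyltransferase, was at 40.8 RPKM in CD4 against 33.4 RPKM in CD8 (1.22-fold higher in CD4, 1.18 to 1.27). Rtp4 was near equal at 32.004 RPKM in CD4 against 31.915 RPKM in CD8, and was below 0 after centring (-0.08). Ifi44, under the 1 RPKM filter, had a ratio of 1.90 (1.25 to 2.94) on 69 reads in CD4 and 35 in CD8.

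**Figure D4:**
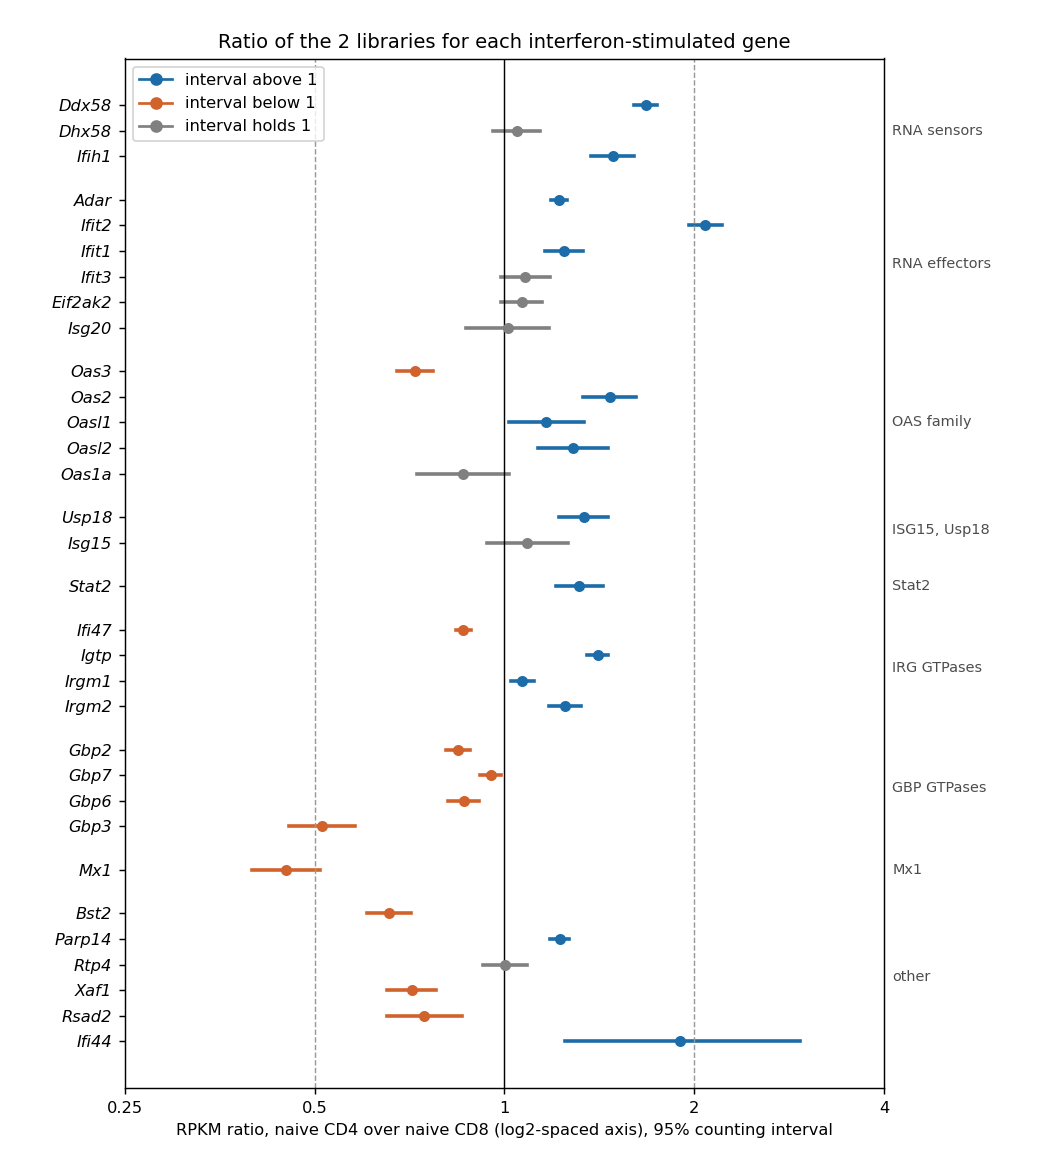
Ratio of RPKM, naive CD4 over naive CD8, for each of the 32 genes on a log2-spaced axis, with exact 95% counting intervals. Intervals lie above 1 (blue), below 1 (orange) or hold 1 (grey), and the dashed lines mark 2-fold; RNA sensors and effectors lie at or above 1, and the GBP genes below it, Gbp7 only before rescaling to a common sum.

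Most of the genes that sit next to each other in the genome did not share 1 ratio. By RefSeq order of protein-coding genes on GRCm38.p6 the genes fall on 13 chromosomes, and 5 pairs have no protein-coding gene between them. Mx1 was not in that order and was not placed. The counting intervals of the ratios were apart in 4 of the 5 pairs, Igtp with Irgm2, Ifit2 with Ifit3, Gbp7 with Gbp3 and Oas2 with Oas3. They overlapped for Oasl2 with Oasl1. The same count was not made for other pairs of genes, and 72.0% of compared genes had an interval on 1 side of 1. The 4 of 5 therefore cannot be read as a trait of these neighbours. Both directions occurred with and without the promoter motif. The 17 genes with an ISRE core had a median log2 difference of 0.09, with 10 above 0 and 7 below. The 7 compared genes without one had a median of 0.20, with 5 above and 2 below. Gene length moved with the difference to a small degree. The rank correlation (Spearman) of length with the log2 difference was 0.27 over the 31 genes and 0.19 over 10227 compared genes, and the part of length was not tested.

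The signalling chain upstream of these genes was present in both libraries. Of 19 interferon ligand genes in the files, 17 were listed at 0 in both, Ifnab had 2 reads, both in CD4 with 0 in CD8, and Ifng 0 in CD4 with 14 in CD8. Of 5 compared receptor genes 2 stood toward CD4 and 3 toward CD8 by their counting intervals (background 45.0% and 27.1%). The 2-fold rule was passed by 0 of them (background 2.41% and 3.07%). The chains of 1 receptor went opposite ways. Ifnar1 was at 39.9 RPKM in CD4 against 34.3 RPKM in CD8 (1.16-fold higher in CD4, 1.12 to 1.21), and Ifnar2 at 22.9 RPKM in CD4 against 31.5 RPKM in CD8 (1.37-fold higher in CD8, 1.29 to 1.46). For the interferon-gamma receptor, the signalling chain Ifngr2 was at 39.6 RPKM in CD4 against 24.2 RPKM in CD8 (1.64-fold higher in CD4, 1.56 to 1.73), and the binding chain Ifngr1 at 68.3 RPKM in CD4 against 95.8 RPKM in CD8 (1.40-fold higher in CD8, 1.34 to 1.47). Il10rb, shared by the lambda interferon receptor, was at 24.8 RPKM in CD4 against 35.7 RPKM in CD8, and Il28ra had 1 read in CD4 and 0 in CD8.

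Of the receptor kinases, Jak1 was at 198 RPKM in CD4 against 260 RPKM in CD8 (1.31-fold higher in CD8, 1.29 to 1.33), Jak2 at 45.8 RPKM in CD4 against 45.3 RPKM in CD8, and Tyk2 at 26.1 RPKM in CD4 against 23.5 RPKM in CD8. Among the interferon regulatory factors, Irf9, the DNA-binding partner of Stat2, was at 99.5 RPKM in CD4 against 74.0 RPKM in CD8 (1.34-fold higher in CD4, 1.29 to 1.39). Irf3 was at 59.9 RPKM in CD4 against 46.1 RPKM in CD8, Irf5 at 1.05 RPKM in CD4 against 0.194 RPKM in CD8, and Irf8 at 2.91 RPKM in CD4 against 4.43 RPKM in CD8. The intervals of Irf1, at 150 RPKM in CD4 against 152 RPKM in CD8, Irf7, at 79.8 RPKM in CD4 against 80.3 RPKM in CD8, and Irf2, at 9.46 RPKM in CD4 against 10.2 RPKM in CD8, held 1.

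Other pathway genes were counted from fixed lists, beside the background of 2.41% of all compared genes past the 2-fold rule toward CD4 and 3.07% toward CD8, so a count of 0 in lists this short says little. Of 13 genes that restrain interferon signalling 0 passed it. Socs1, an inhibitor of JAK kinases, differed most at 6.14 RPKM in CD4 against 12.8 RPKM in CD8 (2.09-fold higher in CD8 without the pseudocount, 1.84 to 2.37), followed by Trim24 at 16.4 RPKM in CD4 against 9.92 RPKM in CD8. Ptpn6 and Socs3 were the highest of that list, Socs3 at 90.8 RPKM in CD4 against 69.8 RPKM in CD8. Of 11 compared adaptors and kinases of nucleic acid sensing 0 passed it, and the adaptor of the RNA sensors, Mavs, was at 7.62 RPKM in CD4 against 4.70 RPKM in CD8 (1.62-fold higher in CD4, 1.42 to 1.85). Aim2, a DNA sensor, was at 11.6 RPKM in CD4 against 18.6 RPKM in CD8 (1.60-fold higher in CD8, 1.45 to 1.75). Ikbke and Tmem173, the gene of STING, were the highest of that list, Tmem173 at 94.8 RPKM in CD4 against 72.6 RPKM in CD8. Of the 3 genes of ISG15 conjugation in the files, Uba7, the activating enzyme, was at 132 RPKM in CD4 against 108 RPKM in CD8, and Herc6, the ligase in mice, at 14.6 RPKM in CD4 against 16.9 RPKM in CD8.

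A further list of interferon-stimulated genes had 53 compared members. As deposited, the counting interval lay above 1 for 31 of the 53 (background 45.0%) and below 1 for 12 (background 27.1%). At 1.5-fold, 7 of the 53 were higher in CD4 (background 8.07%) and 2 in CD8 (background 7.47%). The 2-fold rule was passed by 2 of them toward CD4 and by 1 toward CD8. By that rule alone they were close to the background of 2.41% toward CD4 and 3.07% toward CD8. The median log2 difference was 0.12. Epsti1 differed most toward CD8, at 53.0 RPKM in CD4 against 192 RPKM in CD8 (3.62-fold higher in CD8, 3.42 to 3.84). Ly6a, the Sca-1 antigen, passed the rule toward CD4 at 158 RPKM in CD4 against 43.9 RPKM in CD8 (3.59-fold higher in CD4, 3.33 to 3.88), as did Ifi30, a lysosomal thiol reductase at 22.9 RPKM in CD4 against 7.02 RPKM in CD8 that belongs to the list but was named here after its value was seen. B2m and Shisa5 were the highest of this list, B2m, the light chain of MHC class I, at 1380 RPKM in CD4 against 2173 RPKM in CD8 and Shisa5 at 1150 RPKM in CD4 against 1085 RPKM in CD8.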

How the data were processed

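Ribosomal-RNA-depleted total RNA of 1 naive CD4 and 1 naive CD8 sample was sequenced on a SOLiD low-input preparation, per the labels' protocols. The deposited values are RPKM, made by the authors from reads, with TopHat, HTSeq and build mm9 named in the submitters' processing notes. The annotation, strand setting and handling of multiply mapping reads are not stated in the sources used, so overlapping genes cannot be told apart. Symbols on several rows (2597, Isg20, Mx1, Gbp7 and Adar among them) held identical values and were used once.

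Whole reads were recovered from the RPKM. Equal-read low genes gave the ratio of library totals (209 genes), and the totals were those at which gene lengths were whole numbers near GENCODE M21 transcript lengths. Whole reads came out, to the precision of the deposited digits, for 12733 of the 12735 genes seen in both. Where several multiples were possible the length nearest an annotated one was taken (8 of the 32 genes). Of the 32 lengths 25 lay within 2% of an annotated one. Recovered reads summed to 1.05 times the CD4 total and 1.06 times the CD8 total, and where a length is too long the interval is too narrow.

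The pseudocount was 1 RPKM, which understates differences of low genes, and a gene was compared if it reached 1 RPKM in either library. The calculations were tested on simulated libraries (Python 3.11.15, NumPy 2.4.6, SciPy 1.17.1). The genes and lists were chosen with earlier results of these data known. All 32 genes are named. Folds with intervals were set for those past 2-fold, the 6 largest differences each way and the 6 highest, and are given for most others too. From pathway lists, the receptor, kinase and IRF genes are named in full and up to 4 genes of each other list. The result of 1 gene is not reported here. Alternatives were a pseudocount of 0.1 or 5 RPKM, a filter at 5 RPKM or none, centring, rescaling, a 1.5-fold rule, leaving out paralogs and a looser motif. Using the smallest possible reads was added after seeing the data.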

Additional observations from a re-analysis of the deposited data

How the results depend on the processing

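The counts past the 2-fold rule rest on genes close to it. The 1 gene higher in CD4 (Ifit2) became 0 with a pseudocount of 5 RPKM and 0 after centring on the median gene, and the count was 2 at 1.5-fold. The 1 gene higher in CD8 (Mx1) became 0 with a pseudocount of 5 RPKM and 0 after rescaling each library to a sum of 1000000, and was 3 at 1.5-fold. The counts over all compared genes moved too. Toward CD4 and CD8 they were 247 and 314 as deposited, and 73 and 125 with the pseudocount of 5 RPKM. They were 217 and 368 after centring, 517 and 285 after rescaling, and 825 and 764 at 1.5-fold. The rescaling moved the median log2 difference of the members to 0.3046 and that of all compared genes to 0.2883. It gave 21 members with an interval above 1 in place of 14 and 6 below it in place of 10. Ifit3, Isg15, Isg20, Rtp4, Dhx58, Eif2ak2 and Gbp7 then had an interval above 1. The median of the members was between 0.0119 and 0.0984 under the other alternatives. The smallest possible reads left 14 genes above 1 and 9 below it. The looser ISRE core GAAANNGAA was found for 19 of the 25 genes with a window (76.0%), against 9.76% of genes in the RefSeq table. For the stricter core these shares were 68.0% and 3.99%, so the looser core rose more over all genes than in the group. For single genes, a difference was called moved if it shifted by at least the log2 distance from the middle of its counting interval to an end. By that rule rescaling moved 25 of 31 differences, centring 8 and the pseudocount of 5 RPKM 6, and the filters and the pseudocount of 0.1 RPKM 0. No paired analysis was possible because there is 1 library per cell type with no replicate numbers. Depth limited Ifi44, with 69 reads in CD4 and 35 in CD8, and Oas1a, with 271 in CD4 and 304 in CD8, the most.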

Other observations

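The direction that the 4 GBP genes shared as deposited did not extend to the rest of that family. It also rested on the scaling. After rescaling to a common sum Gbp7 was above 0 (0.14) and the intervals of Gbp2 and Gbp6 held 1. Of 6 further GBP genes compared as deposited, singled out after their values were seen, 2 had an interval above 1 and 1 below it. The background was 45.0% above and 27.1% below, and the median log2 difference of these 6 genes was 0.05. Gbp11 was at 4.21 RPKM in CD4 against 1.90 RPKM in CD8, a 2.22-fold difference toward CD4 (1.79 to 2.77) on 281 and 122 reads, opposite to Gbp3. Gbp4 was at 53.5 RPKM in CD4 against 50.7 RPKM in CD8, and Gbp8 at 46.9 RPKM in CD4 against 50.2 RPKM in CD8. Gbp9, at 65.9 RPKM in CD4 against 67.7 RPKM in CD8, Gbp5 and Gbp10 had intervals that held 1. These genes are close paralogs, and the part of shared reads was not tested.

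In the OAS family Oas1b, of which C57BL/6 mice carry a truncated form, was at 22.3 RPKM in CD4 against 18.6 RPKM in CD8 (1.20-fold higher in CD4, 1.09 to 1.32). Oas1c was at 13.9 RPKM in CD4 against 10.8 RPKM in CD8 (1.28-fold higher in CD4, 1.15 to 1.43). Both were more abundant per length than Oas1a in each library, and both stood toward CD4 while the interval of Oas1a held 1 as deposited. Oas1g had 5 reads in CD4 and 1 in CD8.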
